A study of Mus musculus with 6 samples.

Results

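The 59 genes described here encode Rab GTPases, the small switch proteins that give membrane vesicles and organelles their identity. They were chosen by name out of 19938 measured genes, as those with 1 annotated symbol made of Rab, a number and at most a short suffix. The naming rule uses no measured difference, but the members and the lists below were chosen with earlier results of these data known. Proteins that only bind Rabs were left out of the 59 and are described as partners. The 59 genes are covered by 62 probe sets, and the brightest over all arrays was used where a gene had several.

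RNA came from whole small intestine of mouse embryos at E18.5, the last days before birth. The study compared 3 control samples, of wildtype genotype, with 3 samples from embryos in which E-cadherin was conditionally knocked out (cKO). This is the calcium-dependent adhesion protein of epithelial adherens junctions and is encoded by Cdh1. Both groups were handled alike, as rinsed tissue kept in RNALater, with total RNA labelled with biotin for Affymetrix Mouse Gene 1.0 arrays. The Cre driver, the deleted exons, the strain and whether each sample is 1 embryo are not stated in the material used here, so p-values reflect only how far these samples spread, and that spread may be technical.

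A Rab protein cycles between a GTP-bound form, which sits on a membrane and recruits effectors such as motors and tethers, and a GDP-bound form, which a carrier protein keeps in the cytosol. Exchange factors switch it on and GTPase-activating proteins switch it off. In an intestinal enterocyte, Rab11 and Rab8 proteins act on the recycling route that brings membrane proteins to the apical brush border. Rab5 and Rab4 proteins act on early endosomes, Rab7 and Rab9 proteins on late endosomes, and Rab1, Rab2 and Rab6 proteins around the Golgi. In cells that store secretory granules, Rab3 and Rab27 proteins act on those granules.

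Values are log2 expression values, and every difference is cKO minus control on that scale, with the standard error (SE) from limma. A gene passed the threshold when its p-value, adjusted by Benjamini-Hochberg over all 19938 genes, was below 0.05. The level of Cdh1 was 9.86, 9.82 and 10.15 on control arrays 1, 2 and 3. On cKO arrays 1, 2 and 3 it was 9.70, 8.38 and 8.91, a difference of -0.95 (SE 0.31, limma adjusted p = 0.0884). The groups did not overlap (exact two-sided permutation p = 0.1, the smallest that 3 against 3 allows). Without cKO 1, the cKO array with the highest Cdh1 level, the difference passed (-1.30, limma adjusted p = 0.0118). Without any other 1 array it did not pass (limma adjusted p of 0.145 to 0.256). The epithelial markers Epcam and Vil1 were above background on all arrays, background being the level under which 95% of 1215 chemosensory receptor genes fell on an array (5.79 to 6.36). Array medians lay between 6.17, on cKO 2, and 6.5.

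The samples also differed in the marker genes of several cell types, summarised as the mean log2 level of each list. The enterocyte list ran from 10.78 to 11.32 on control arrays and from 9.92 to 10.07 on cKO arrays, with 3 of 8 genes lower. The fibroblast list ran from 10.02 to 10.23 and from 10.83 to 11.08, and that of smooth muscle from 10.73 to 11.04 and from 11.74 to 11.93, with 5 of 5 genes higher in each. The macrophage list ran from 7.13 to 7.32 and from 8.11 to 8.45, with 5 of 7 higher, and the neutrophil list from 5.15 to 5.22 and from 5.80 to 6.77, with 2 of 5 higher. The mean of the neutrophil list was under background on all arrays but cKO 2, where Ly6g read 9.27, and S100a8, the other gene called, was at background on all 3 controls and 2 cKO arrays. Of the general epithelial list 3 of 6 genes were higher, all 3 of them keratins, and its level ran from 11.05 to 11.16 and from 11.47 to 11.56. None of the markers of those 6 lists was at background on all arrays except 1 gene each of the enterocyte and neutrophil lists, Sis and Mpo. On cKO 3 alone the pancreas list reached 8.88, against 5.70 to 6.08 on the other arrays. The goblet list ran from 9.66 to 9.95 on control and from 9.40 to 9.63 on cKO arrays, with 1 of 5 genes lower, Tff3. The endothelium list ran from 8.41 to 8.46 and from 8.58 to 8.66, with 0 of 5 genes past the threshold. The part of these shifts in the Rab results below was not tested, and in whole tissue fewer cells of a type and less RNA per cell cannot be told apart.

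**Figure D1:**
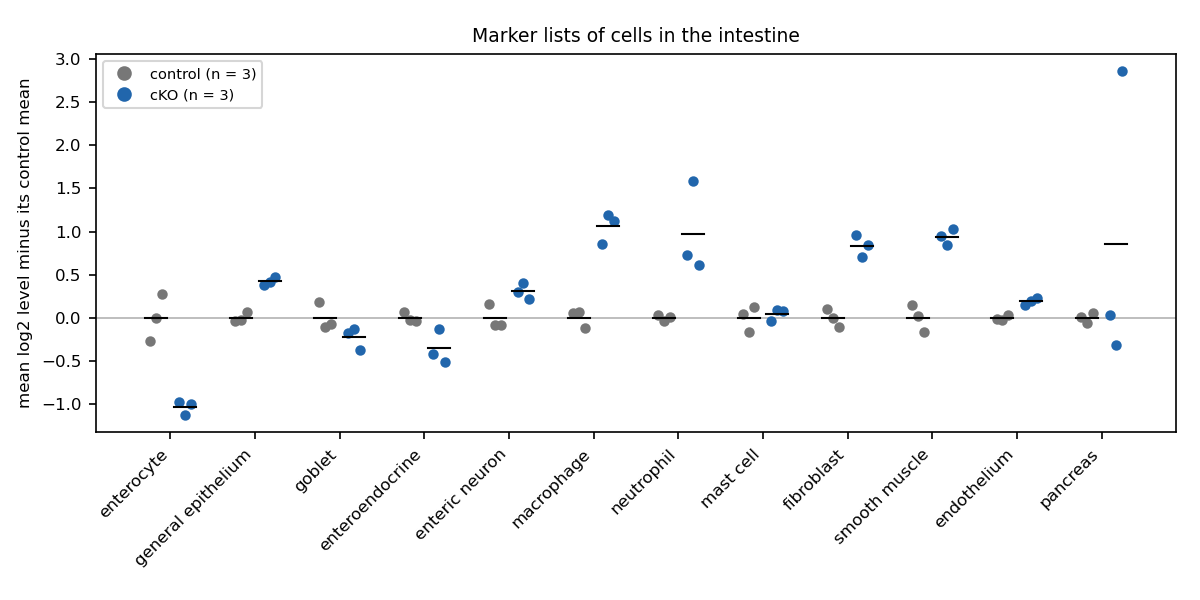
Mean log2 level of each marker list on each array, drawn relative to the mean of the 3 control arrays (grey points, control; blue points, cKO; black bars, group means). The cKO points lie below the controls for the enterocyte, goblet and enteroendocrine lists. They lie above the controls for the general epithelium, enteric neuron, macrophage, neutrophil, fibroblast, smooth muscle and endothelium lists. The groups overlap in the mast cell list, and 1 cKO array stands apart in the pancreas list.

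Of the 59 Rab genes, 18 passed the threshold, which is 30.5%, against a percentage of 14.2 over all genes tested. Of these, 12 were lower in cKO, where the percentage over all genes was 7.36, and 6 were higher, where it was 6.81. Rab genes were mostly in the brighter 50% of the table, where 15 of 43 passed (34.9%) against 22.1% of 9965 genes. Each cKO value was under each control value in 23 of the 59 and over it in 11, against 19.3% and 16% of all genes. The median difference of the 59 was -0.11 and that of all genes -0.09. With the arrays centred on their medians the Rab calls were 6 lower and 6 higher, and with quantile normalization 11 lower and 6 higher, where the median of all genes was 0.01 and -0.0028. Over all genes 12.9% passed with median centring and 16.3% with quantile normalization. No Rab gene that passed under any setting changed its sign.

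The genes that fell were Rab42, Rab17, Rab19, Rab30, Rab11a, Rab24, Rab5c, Rab20, Rab9, Rab8a, Rab4a and Rab1a, in order of their measured differences from -1.50 to -0.44. Those that rose were Rab23, Rab27a, Rab12, Rab7b, Rab27b and Rab31, by 0.93 to 0.54. Rab11a, Rab17, Rab19, Rab42 and Rab27a passed under every alternative processing and with any 1 array left out, wherever they were tested. The other 13 lost their call under at least 1 of these. The scalings, probe set choices and left-out arrays that did so are given with each gene. Of the 59 Rab genes, 5 passed without control 2 and 5 without cKO 3. Over all genes the share that passed fell as well, to 6.15% without control 2 and 7.61% without cKO 3.

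**Figure D2:**
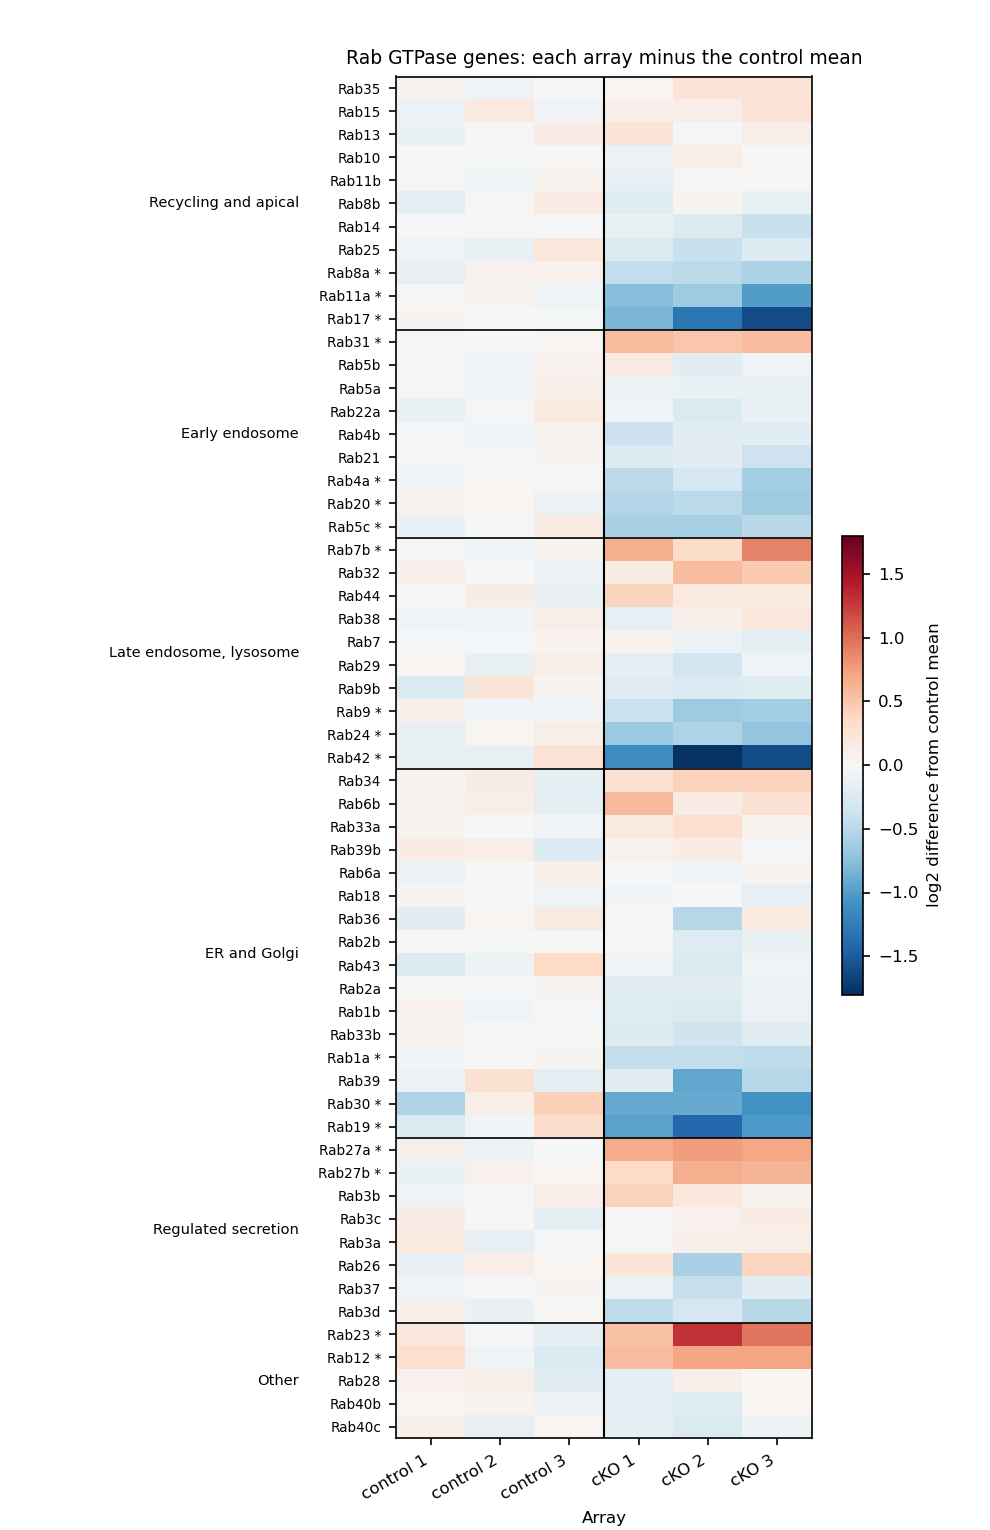
Each of the 59 Rab genes (rows, by role) on each array (columns), coloured by the log2 difference from its control mean. An asterisk marks the 18 genes that passed the threshold, with red above and blue below the control mean.

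The promoters of the 5 Rab genes called throughout are shown because they let the lower genes be set beside Rab27a, which rose. Each is 250 bases before the annotated start, 5′ to 3′ on the gene's strand, from RefSeq on GRCm38.p6. Capitals mark the motifs found among the 7 searched on both strands, which were for CDX factors the letters TTTATNG, for HNF4 factors CAAAGTC, for GATA factors the letters AGATAA, for AP-1 factors TGANTCA, for TEAD factors GGAATG, for the E-box of lysosomal genes CACGTG and for the GC box GGGCGG. None of these motifs contains another.
Rab11a, chr9:64737757-64738006, minus strand: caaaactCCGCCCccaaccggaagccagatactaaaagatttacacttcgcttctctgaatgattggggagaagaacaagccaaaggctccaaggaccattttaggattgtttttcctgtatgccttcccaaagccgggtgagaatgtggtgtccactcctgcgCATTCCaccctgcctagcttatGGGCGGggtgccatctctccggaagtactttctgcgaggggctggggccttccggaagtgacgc
Rab17, chr1:90967668-90967917, minus strand: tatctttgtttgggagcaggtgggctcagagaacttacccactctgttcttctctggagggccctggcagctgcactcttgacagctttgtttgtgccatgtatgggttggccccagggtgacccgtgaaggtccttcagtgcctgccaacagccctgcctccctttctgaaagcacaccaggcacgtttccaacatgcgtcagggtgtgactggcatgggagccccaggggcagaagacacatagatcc
Rab19, chr6:39381103-39381352, plus strand: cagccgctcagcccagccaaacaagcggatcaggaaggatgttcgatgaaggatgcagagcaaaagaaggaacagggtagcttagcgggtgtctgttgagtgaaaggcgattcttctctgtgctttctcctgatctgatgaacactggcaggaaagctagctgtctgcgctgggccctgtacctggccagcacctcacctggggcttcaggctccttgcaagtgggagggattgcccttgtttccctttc
Rab42, chr4:132303357-132303606, minus strand: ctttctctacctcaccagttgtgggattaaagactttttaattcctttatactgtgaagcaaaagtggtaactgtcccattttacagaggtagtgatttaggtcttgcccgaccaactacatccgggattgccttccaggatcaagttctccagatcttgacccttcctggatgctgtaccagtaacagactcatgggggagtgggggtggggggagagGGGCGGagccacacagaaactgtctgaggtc
Rab27a, chr9:73044560-73044809, plus strand, the first of 2 listed starts: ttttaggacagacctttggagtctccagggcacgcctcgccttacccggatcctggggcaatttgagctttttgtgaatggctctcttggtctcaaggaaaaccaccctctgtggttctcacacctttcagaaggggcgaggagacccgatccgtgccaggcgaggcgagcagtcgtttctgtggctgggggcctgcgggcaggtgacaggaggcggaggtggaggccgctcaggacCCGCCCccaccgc

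The reference table holds a window of 300 bases around the start for 48 of the 59 genes. Over it the Rab17, Rab19 and Rab42 promoters had 5, 9 and 6 CpG dinucleotides, and those of Rab11a and Rab27a had 16 and 18. The window at the second listed start of Rab27a, not shown above, had 6 CpG dinucleotides and no GC box. The 60 Rab promoters had a median of 19.5, against 15 over the 19177 promoters of genes measured here. A GC box stood in 68.3% of the Rab promoters and in 49.2% of those of measured genes. The CDX and HNF4 letters stood in 0 of the 10 promoters of lower Rab genes, against 9.01% and 4.17% of measured genes' promoters, and the E-box letters in 2 of them, those of Rab20 and Rab24, against 8.24%. The GATA and AP-1 letters stood in 0 of the 10 as well, against 9.25% and 6.9%, and the TEAD letters in 2, against 13.2%. The GC box stood in 5 of the 10, near the 49.2% of measured genes' promoters, and in 70.5% of the 44 promoters of Rab genes not called. In the 6 promoters of higher Rab genes the CDX and HNF4 letters stood in 1 each and the E-box letters in 2. There the GC box stood in 5 and the GATA, AP-1 and TEAD letters in 0. Sets of 10 and 6 promoters are small, and no share was compared by a test. These are matches of letters in a short window and say nothing of binding.

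Among the 11 Rabs of recycling endosomes and apical transport, 3 fell and 0 rose (27.3%, against 14.2% over all genes), with a median difference of -0.10, close to the -0.09 of all genes. Rab11a, the main Rab of apical recycling endosomes, read 10.82, 10.88 and 10.74 in the controls and 10.05, 10.18 and 9.81 in cKO. The groups did not overlap, and the difference was -0.80 (SE 0.13, limma adjusted p = 0.00779), with leave-out and processing alternatives between -0.97 and -0.67. Rab17, an epithelial Rab of apical recycling and transcytosis, read 9.65, 9.59 and 9.58 in the controls and 8.79, 8.30 and 7.99 in cKO. Its cKO values spread more widely than its controls and all lay below them, a difference of -1.25 (SE 0.20, adjusted p = 0.00708).

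Rab8a, which carries cargo from the Golgi and recycling endosomes to the apical surface, read 10.22, 10.44 and 10.44 in the controls and 9.92, 9.90 and 9.80 in cKO. The difference of -0.49 (SE 0.12, adjusted p = 0.0307) held in every cKO array against every control array. Its call was lost with quantile normalization, with median centring, when all 35512 probe sets were tested and on leaving out any of controls 2 and 3 and cKO 1 and 3 (at most 0.136). Rab25, the epithelial relative of Rab11a, read 9.72, 9.67 and 10 against 9.53, 9.39 and 9.55, a difference of -0.31 that did not pass (95% interval -0.61 to -0.0022, adjusted p = 0.171). Rab14, which acts between the Golgi and endosomes, differed by -0.26 with all cKO values below the controls (adjusted p = 0.191, and 0.0257 with array weights). The groups overlapped for the other 6, Rab35, Rab15, Rab13, Rab10, Rab11b and Rab8b, whose differences ran from -0.10 to 0.18. For Rab10, a Rab of basolateral and recycling transport, the means were equal at 10.13 (95% interval of the difference -0.25 to 0.25).

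**Figure D3:**
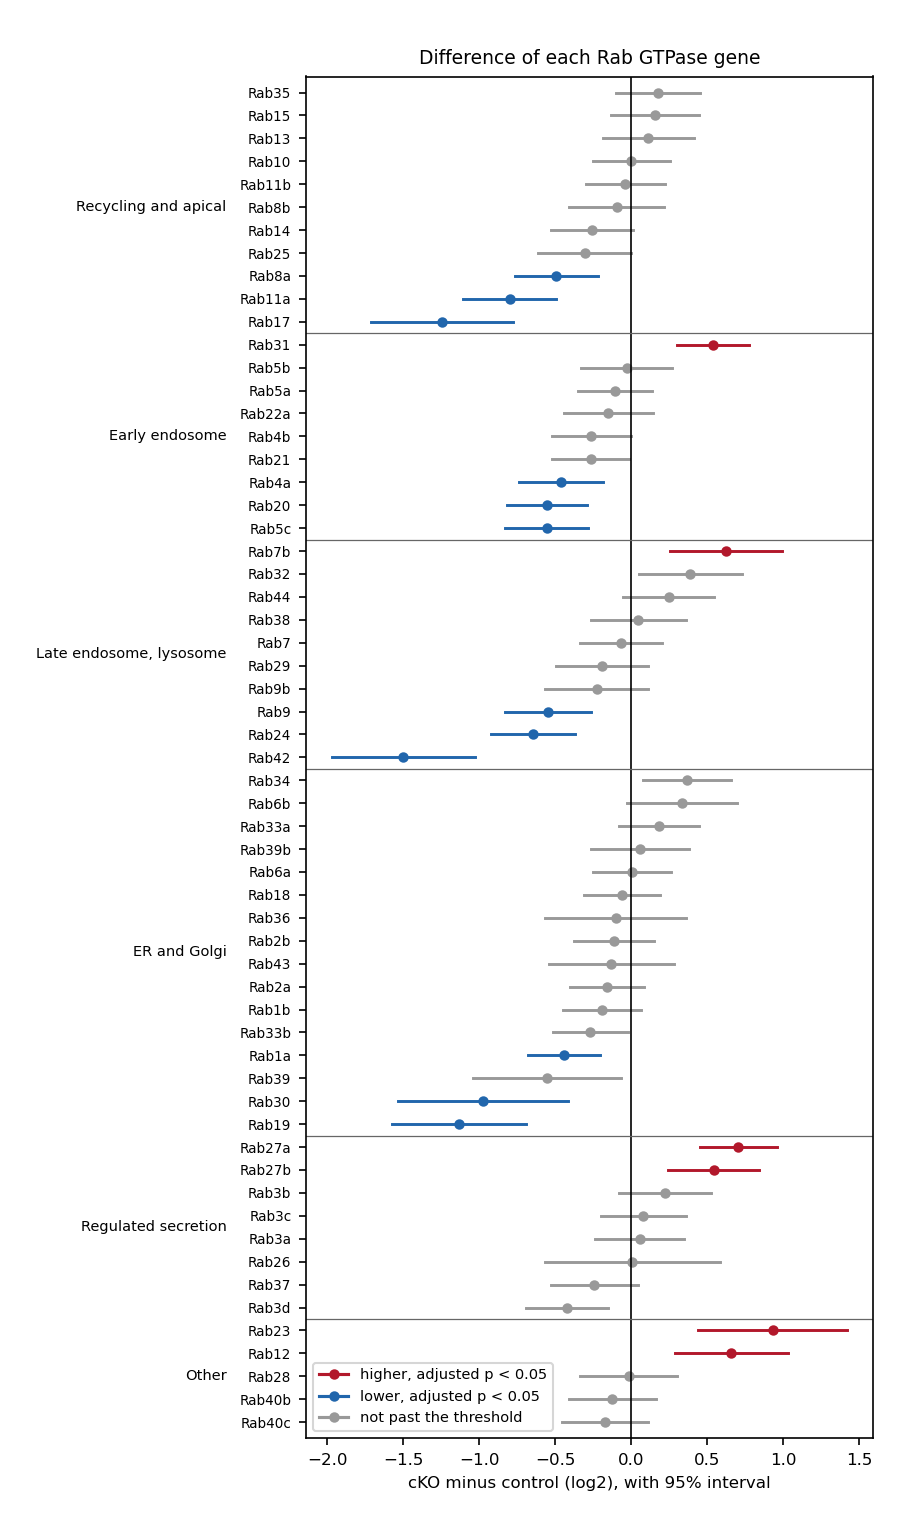
Difference of each Rab gene between cKO and control (points, log2) with its 95% interval (lines), by role. Blue genes were lower and red genes higher past the threshold, and grey genes did not pass. The lower calls lie in the 4 upper roles and the 2 secretory calls are both higher.

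Of 25 genes for recycling and apical effectors, 4 fell and 1 rose (20%, against 14.2% over all genes), with a median of -0.02. Rab11fip5, a Rab11 effector of apical recycling, read 8.23, 8.36 and 8.80 in the controls and 6.99, 6.78 and 7.01 in cKO, a difference of -1.54 (SE 0.17, adjusted p = 0.00206). Rab11fip3, an effector that links Rab11 endosomes to dynein and cell division, fell by 0.91 (SE 0.15, adjusted p = 0.00739). Both passed in all alternatives. Exoc6, the exocyst subunit that binds Rab11, fell by 0.65 (adjusted p = 0.0197), a call lost with median centring, with all probe sets tested and without control 2, control 3 or cKO 3 (at most 0.0814).

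Myo5b, the myosin motor that carries Rab11 endosomes and whose loss causes microvillus inclusion disease, read 8.73, 8.80 and 9.17 against 8.52, 8.39 and 8.30. The groups did not overlap, but the difference of -0.50 did not pass (95% interval -0.85 to -0.15, adjusted p = 0.0684, while it passed with array weights, with a variance trend and without the dimmest 25% or dimmer 50% of genes, at 0.0148 to 0.0418). Rab11fip1, another Rab11 effector, differed by -0.12 (adjusted p = 0.53). Myo5a, the motor of melanosomes and secretory granules, rose by 0.64 (SE 0.14, adjusted p = 0.023), with 2 of 3 controls at background. That call was lost with all probe sets tested and without control 2, control 3 or cKO 3 (at most 0.101). The fifth gene past the threshold, named after its values were seen, was Sh3tc2, a Rab11 effector, at -0.53 (adjusted p = 0.0315). That call did not hold without any 1 array, with all probe sets tested or with median centring (at most 0.0981).

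Of 8 genes of the apical membrane fusion machinery, 5 fell and 0 rose (62.5%, against 14.2% over all genes), with a median of -0.65. The list was bright, with a median control level of 9.03, against 6.997 over all genes. Among the 9965 brighter genes, 22.1% passed. Members of the list were chosen with earlier results of these data known, so the 62.5% describes the list and is no test of it. Stx3, the syntaxin of the apical membrane, read 9, 8.79 and 8.93 in the controls and 8, 7.92 and 7.49 in cKO, a difference of -1.10 (SE 0.16, adjusted p = 0.00511). Stxbp2, the Munc18-2 protein that binds it, read 9.61, 9.76 and 9.89 against 8.97, 8.98 and 8.97, a difference of -0.78 (SE 0.12, adjusted p = 0.00561). Vps33b, a Sec1-like protein of apical sorting, read 8.61, 8.45 and 8.46 against 7.53, 7.72 and 7.63, a difference of -0.88 (SE 0.11, adjusted p = 0.00347). These 3 passed in all alternatives, and the groups of each were well apart.

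The vesicle SNARE gene Vamp8 fell by 0.71 (SE 0.13, adjusted p = 0.012), a call lost without control 2 or control 3 (0.0654 and 0.0506). Snap23, a SNARE of the plasma membrane and the remaining gene that fell, was named after its values were seen and differed by -0.44 (adjusted p = 0.0397), a call lost under each other scaling, with all probe sets tested and without any 1 array (at most 0.133). Vamp7, Vipas39, the partner of Vps33b, and Stx4a, the basolateral syntaxin, differed by -0.59, -0.21 and -0.08 and did not pass. The enterocyte marker list fell on the same arrays, as given above, and its part in these differences was not tested.

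**Figure D4:**
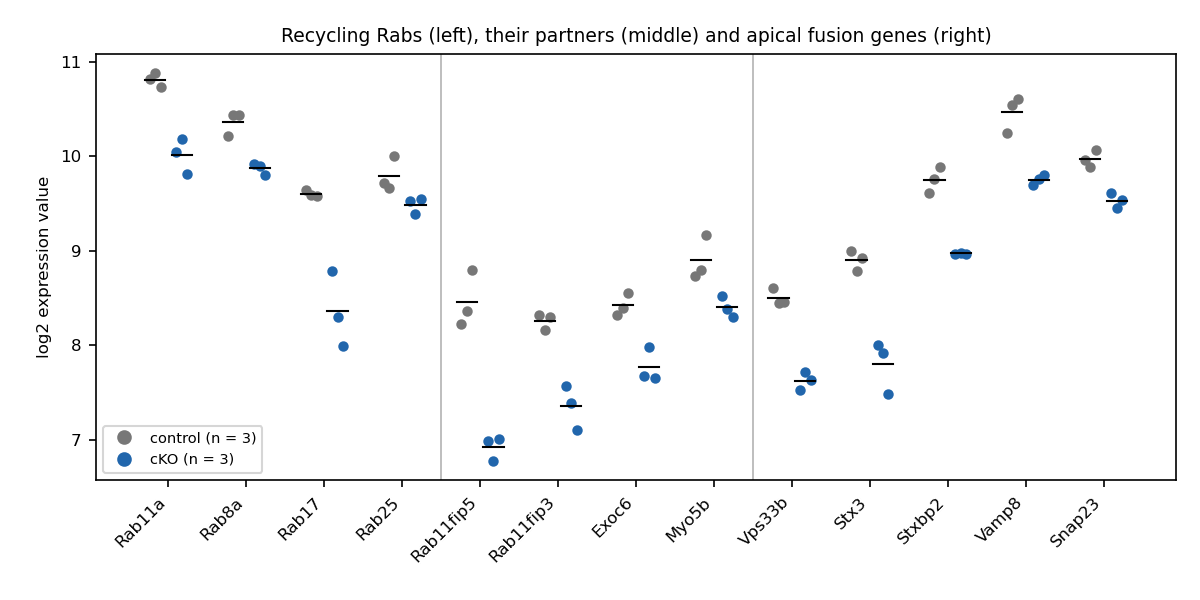
Log2 values of recycling Rab genes (left), their partners (middle) and apical fusion genes (right) on each array (grey, control; blue, cKO; black bars, group means). Apart from Rab25 and Myo5b, which did not pass the threshold, the 13 genes drawn are ones that passed it as lower. That the cKO points lie below the control points in all 13 thus follows from the choice of genes. Members of the same lists that did not fall, such as Rab10, Rab35 and Myo5a, which rose, are not drawn. Heights are not comparable between genes.

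Among the 9 Rabs of early endosomes, 3 fell and 1 rose (44.4%, against 14.2% over all genes), with a median of -0.26. Rab5c, a form of the Rab that drives early endosome fusion, read 10.52, 10.61 and 10.78 in the controls and 10.06, 10.04 and 10.14 in cKO, a difference of -0.56 (SE 0.12, adjusted p = 0.0201). The other forms, Rab5a and Rab5b, differed by -0.11 and -0.03 and did not pass (95% intervals -0.35 to 0.14 and -0.33 to 0.27). The call of Rab5c was lost with median centring, with all probe sets tested and without control 2, control 3 or cKO 3 (at most 0.083). Rab20, a Rab of endosomes and phagosomes, read 8.63, 8.60 and 8.46 against 8.03, 8.08 and 7.92, a difference of -0.55 (SE 0.11, adjusted p = 0.0179). It was not called with median centring or without control 1, control 2 or cKO 3 (at most 0.0924).

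Rab4a, which returns cargo quickly to the surface, read 8.73, 8.81 and 8.79 against 8.31, 8.46 and 8.17, a difference of -0.46 (SE 0.12, adjusted p = 0.0401). This call depended on the most settings of its group: it was lost with median centring, with all probe sets tested and with any 1 array but cKO 2 left out (at most 0.194). Rab31, which moves cargo between the Golgi and endosomes, was the member that rose, from 8.66, 8.70 and 8.73 to 9.26, 9.20 and 9.25, a difference of 0.54 (SE 0.10, adjusted p = 0.0134). Replicates of Rab31 were tight in both groups, and its call was lost without control 1, control 2 or cKO 3 (at most 0.0713). In Rab4b and Rab21 all cKO values lay below the controls as well, with differences of -0.26 and -0.27 that did not pass, although Rab21 passed with array weights (0.025). Rab22a, a relative of Rab5 on endosomes, differed by -0.15 with overlapping groups.

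Among the 10 Rabs of late endosomes, lysosomes and related organelles, 3 fell and 1 rose (40%, against 14.2% over all genes), with a median of -0.13. The largest measured difference of any Rab was that of Rab42, from 6.51, 6.5 and 6.90 to 5.52, 4.86 and 5.03, or -1.50 (SE 0.20, adjusted p = 0.00385). All its cKO values were at background, so its level there is only bounded, and against that bound it was at least 1.51-fold lower. Rab24, a Rab linked to autophagy, read 8.96, 9.13 and 9.21 against 8.43, 8.54 and 8.39, a difference of -0.65 (SE 0.12, adjusted p = 0.012). Without control 2, control 3 or cKO 3 it was not called (0.0654, 0.051 and 0.0531).

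Rab9, which returns receptors from late endosomes to the Golgi, read 8.84, 8.69 and 8.70 against 8.36, 8.11 and 8.12, a difference of -0.55 (SE 0.12, adjusted p = 0.0249). It was not called with median centring, with all probe sets tested or without control 1, 2 or 3 or cKO 3 (at most 0.0916). Rab7, the central Rab of late endosomes, differed by -0.07 (95% interval -0.33 to 0.20). Rab7b, a late endosomal Rab of myeloid cells, rose from 5.86, 5.77 and 5.89 to 6.49, 6.17 and 6.73, or by 0.62 (SE 0.16, adjusted p = 0.0391). Its controls were all at background, which bounds the change at 1.14-fold or more, and its call was lost with all probe sets tested and without any 1 array but cKO 2 (at most 0.144). Rab32, a Rab of melanosomes and macrophage phagosomes, differed by 0.39 with no overlap of the groups and did not pass (adjusted p = 0.123, with 0.0457 without cKO 1 and 0.02 with array weights). The macrophage marker list was higher on the same arrays, and its part here was not tested. Rab44 differed by 0.25, without overlap, and Rab29 and Rab9b by -0.19 and -0.23, with overlap, and none of them passed. Rab38 was at background on all 3 controls and 1 cKO array, so its change is only bounded, and it did not pass.

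Of 23 genes for effectors of early and late endosomes, 4 fell and 2 rose (26.1%, against 14.2% over all genes), with a median of -0.20. Rabep1, the rabaptin that binds Rab5 and Rab4, had the smallest p of all partners: it read 9.22, 9.22 and 9.17 in the controls and 8.10, 8.05 and 7.76 in cKO, a difference of -1.23 (SE 0.13, adjusted p = 0.00164), and passed in all alternatives. Vps41 and Vps18, subunits of the HOPS tether that fuses late endosomes with lysosomes, fell by 0.52 and 0.51 (adjusted p = 0.0211 and 0.0297). Appl1, an adaptor on a class of early endosomes, rose by 0.54 (adjusted p = 0.0232). The call of Vps41 was lost without any 1 control or cKO 3 (at most 0.0836), that of Vps18 without any 1 control, cKO 2 or cKO 3 (at most 0.123) and that of Appl1 without any 1 control or cKO 3 (at most 0.11). Those of Vps41 and Vps18 were also lost with median centring (0.106 and 0.0829), and all 3 with all probe sets tested (0.0541, 0.0717 and 0.0597). The other genes past the threshold, named after their values were seen, were Vps11, a further HOPS subunit, at -0.55, and Plekhm2, a lysosome and kinesin adaptor, at 0.42 (adjusted p = 0.034 and 0.0365). Both calls were lost with all probe sets tested and without any 1 array but cKO 2 (at most 0.118 for Vps11 and 0.163 for Plekhm2), and that of Vps11 with median centring too.

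Of 16 Rabs of the endoplasmic reticulum and Golgi, 3 fell and 0 rose (18.8%, near the 14.2% over all genes), with a median of -0.12. Rab19, a Golgi Rab, read 7.14, 7.36 and 7.72 in the controls and 6.44, 6 and 6.38 in cKO, a difference of -1.13 (SE 0.19, adjusted p = 0.00836). Rab30, also on the Golgi, read 8.55, 9.21 and 9.53 against 8.18, 8.19 and 8, a difference of -0.97 (SE 0.24, adjusted p = 0.0353). Its controls were the most spread of any Rab (SD 0.50), and it was not called with all probe sets tested or without control 2 or 3 or any 1 cKO array (at most 0.127). Rab1a, which takes vesicles from the endoplasmic reticulum to the Golgi, read 11.87, 11.91 and 11.96 against 11.48, 11.47 and 11.46. The difference of -0.44 (SE 0.10, adjusted p = 0.0273) was small beside most other calls, with very tight replicates, and was lost with median centring, with all probe sets tested and without any 1 array but cKO 2 (at most 0.132).

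The other forms and neighbours of this group did not pass. Rab1b and Rab2a had all cKO values below the controls, with differences of -0.19 and -0.16, and a further probe set named for Rab2a differed by -0.30. Rab33b and Rab39 were also separated, at -0.27 and -0.55 (adjusted p = 0.143 and 0.13), and Rab39 passed with array weights (0.0198). Rab6a, the main Rab of the trans-Golgi, read 11.12, 11.24 and 11.32 against 11.24, 11.18 and 11.28, a difference of 0.01 (95% interval -0.25 to 0.26). In Rab34, Rab6b and Rab33a the cKO values all lay above the controls, with differences of 0.37, 0.33 and 0.18, of which Rab34, a Rab tied to the Golgi and cilia, passed with array weights (0.0412) and without the dimmer 50% of genes (0.0378). Rab33a and Rab39b were at background on all 3 controls and on 2 cKO arrays, so their measured differences are limited by signal. Rab39b did not pass and overlapped between the groups. Rab18, Rab36, Rab2b and Rab43 differed by -0.06, -0.10, -0.11 and -0.13, all with overlapping groups.

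Of 13 Golgi effectors 2 fell and 0 rose (15.4%, about the 14.2% over all genes), with a median of -0.20. They were the trans-Golgi tethers Golga1, at -0.60 (adjusted p = 0.0187), and Golga4, at -0.57 (adjusted p = 0.0437). Golga1 was not called with median centring, with all probe sets tested or without control 2, control 3 or cKO 3 (at most 0.0932). Golga4 was not called with median centring, with all probe sets tested or without any 1 array but cKO 1 (at most 0.151).

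Of the 8 Rabs of regulated secretion, 2 rose and 0 fell (25%, against 14.2% over all genes), with a median of 0.07. Rab27a, which docks secretory granules and lysosome-related organelles at the plasma membrane, read 7.30, 7.11 and 7.20 in the controls and 7.87, 7.95 and 7.90 in cKO. The cKO values were tight and clear of the controls, a difference of 0.70 (SE 0.11, adjusted p = 0.00629) that passed in all alternatives. Rab27b, its close relative, read 6.78, 6.97 and 6.93 against 7.25, 7.55 and 7.51, a difference of 0.54 (SE 0.13, adjusted p = 0.0308). Its call was lost with all probe sets tested and without any 1 control, cKO 2 or cKO 3 (at most 0.106).

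Rab3d, a Rab of exocrine and other secretory granules, read 7.59, 7.38 and 7.51 against 7.03, 7.18 and 7, a difference of -0.42 just short of the threshold (adjusted p = 0.0522). It passed with array weights, with a variance trend, without the dimmest 25% or the dimmer 50% of genes and without cKO 2 (0.0112 to 0.0424). The neuronal and endocrine Rabs Rab3a, Rab3b and Rab3c differed by 0.06, 0.22 and 0.08 with overlapping groups. The enteroendocrine list had 0 of 7 genes past the threshold by limma, against 14.2% over all genes. The unadjusted limma p was under 0.05 for 2 of the 7, Chga and Sct, and for 5732 of all 19938 genes. The enteroendocrine list as a whole was lower, at 8.17 to 8.27 on control and 7.70 to 8.08 on cKO arrays, and the enteric neuron list was higher, at 7.51 to 7.76 and 7.82 to 7.99, with 2 of 7 genes past the threshold, Snap25 and Uchl1. The goblet list was lower as well, as given above. The part of these lists in the values of the secretory Rabs was not tested. Rab37, a Rab of secretory granules, differed by -0.24 with the cKO values below the controls and did not pass (adjusted p = 0.239). Rab26, a Rab of acinar secretory granules, read 6.89, 6.10 and 7.06 in cKO against 6.53, 6.79 and 6.71, the widest cKO spread of any Rab (SD 0.51). Its low value fell on cKO 2, the array with the lowest median, while its values on cKO 1 and cKO 3 were close. The pancreas markers were high on cKO 3 alone. A link of either array to this spread was not tested.

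Of 14 secretory effectors 2 fell and 0 rose (14.3%, against 14.2% over all genes), with a median of -0.14. Exph5 and Sytl3, both effectors of Rab27, read 6.73, 6.80 and 6.90 against 6.05, 5.45 and 5.66, and 6.51, 6.6 and 6.86 against 6.01, 5.43 and 5.61. Their cKO values were all at background, so the measured differences of -1.09 and -0.97 (adjusted p = 0.00624 and 0.0122) are bounded at 1.70-fold and 1.53-fold lower or more. Exph5 was called in all alternatives that held it, and Sytl3 was not called without control 2 or control 3 (0.05 and 0.0537). The direction of these 2 genes was thus opposite to that of Rab27a and Rab27b in the same samples, but this did not hold for the list. All cKO values lay above the controls in 2 of the 14 genes and below them in 4, against 16% and 19.3% of all genes. Sytl2, named after its values were seen, was among those above, at 0.43 (limma adjusted p = 0.12), with 2 of 3 controls at background.

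Of the 5 Rabs outside these routes, 2 rose and 0 fell (40%, against 14.2% over all genes), with a median of -0.02. Rab23, a Rab that restrains hedgehog signalling, rose from 6.80, 6.57 and 6.42 to 7.12, 7.90 and 7.56, a difference of 0.93 (SE 0.21, adjusted p = 0.0265). Its call was lost with all probe sets tested and without control 2, control 3 or cKO 3 (at most 0.107). Rab12, which sends receptors from recycling endosomes to degradation, rose from 8.66, 8.30 and 8.11 to 8.91, 9.07 and 9.07, a difference of 0.66 (SE 0.16, adjusted p = 0.0335). This call was lost with all probe sets tested and without control 2, control 3 or any 1 cKO array (at most 0.127). The fibroblast and smooth muscle lists were higher on the same cKO arrays, and their part in these differences was not tested. Rab28 and Rab40c differed by -0.02 and -0.17, with groups that overlapped. Rab40b, at background on all 3 controls and 1 cKO array, overlapped as well.

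The genes that load and switch Rabs were also measured. Of 7 genes for prenylation and for the cytosolic carriers, 0 passed at the threshold by limma, against 14.2% over all genes. The unadjusted limma p was under 0.05 for 1 of them, Chml, and for 5732 of all 19938 genes. Differences of the 7 ran from -0.16 to 0.27. Of 33 exchange factor genes, 4 rose and 4 fell (24.2%, against 14.2% over all genes), with a median of -0.08. Dennd5a, from 8.13, 8.06 and 8.11 to 8.80, 8.83 and 8.79, rose by 0.71 (SE 0.10, adjusted p = 0.00479). Rin2, an exchange factor for Rab5, rose by 0.68 (adjusted p = 0.00801, and 0.052 without control 2).

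Rab3il1, an exchange factor of the Rabin family, fell from 8.55, 8.51 and 8.72 to 7.52, 7.91 and 7.54, or by 0.94 (SE 0.14, adjusted p = 0.00629), in all alternatives. Dennd2d fell by 0.58 (adjusted p = 0.0165), a call lost with median centring and without control 2, control 3 or cKO 3 (at most 0.0859). The others past the threshold, named after their values were seen, were Hps4 and Dennd1b, at -0.66 and -0.53, and Dennd4a and Dennd2a, at 0.54 and 0.50 (adjusted p of 0.0255 to 0.04). Each of these 4 calls was lost with all probe sets tested and without any 1 control or cKO 3 (at most 0.124), that of Hps4 also without cKO 2, that of Dennd4a without cKO 1, and that of Dennd1b without any 1 cKO array or with median centring. Of 35 genes for GTPase-activating proteins, 5 fell and 0 rose (14.3%, about the 14.2% over all genes), with a median of -0.10. Tbc1d1, known for its role in glucose transporter traffic, and Tbc1d10a, a protein of microvilli that acts on Rab27 and Rab35, fell by 0.84 and 0.82 (adjusted p = 0.00777 and 0.00838), both in all alternatives. Tbc1d24 fell by 0.66 (adjusted p = 0.04), a call lost with median centring, with all probe sets tested and without any 1 array but cKO 1 (at most 0.142). Tbc1d5, a partner of retromer, fell by 0.53 in its brightest probe set (adjusted p = 0.0333). The mean of its probe sets differed by -0.29 and did not pass (0.472), and its call was also lost with the 3 other scalings, with all probe sets tested and without any 1 array but cKO 2 (at most 0.158). The remaining gene, Tbc1d14, named after its values were seen, differed by -0.54 (adjusted p = 0.0402), and did not pass without any 1 array but control 1, with all probe sets tested or with median centring (at most 0.12).

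Closely related Rabs could be compared within each array through their log2 ratio. In all, 24 pairs were compared, several of which share a member. The exact two-sided permutation test cannot go below p = 0.1 with 3 against 3, and the lowest value adjusted over the 24 pairs was 0.16. The ratio of Rab11a to Rab11b was 0.89, 1.04 and 0.77 in the controls and 0.29, 0.25 and -0.12 in cKO, a change of -0.76 with an exact p of 0.1. Rab5c against Rab5a changed by -0.45, from 0.33, 0.46 and 0.48 to -0.06, -0.06 and 0.04, and Rab8a against Rab8b by -0.40, both without overlap. The ratio of Rab11a to Rab25 overlapped between the groups (change -0.49, exact p = 0.2), as did that of Rab27a to Rab27b (change 0.16, exact p = 0.4). Rab3a against Rab3d changed by 0.48 without overlap. These ratios do not depend on the scaling of the arrays to a common median, but no pair passed a test, and a ratio does not show which member moved.

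**Figure D5:**
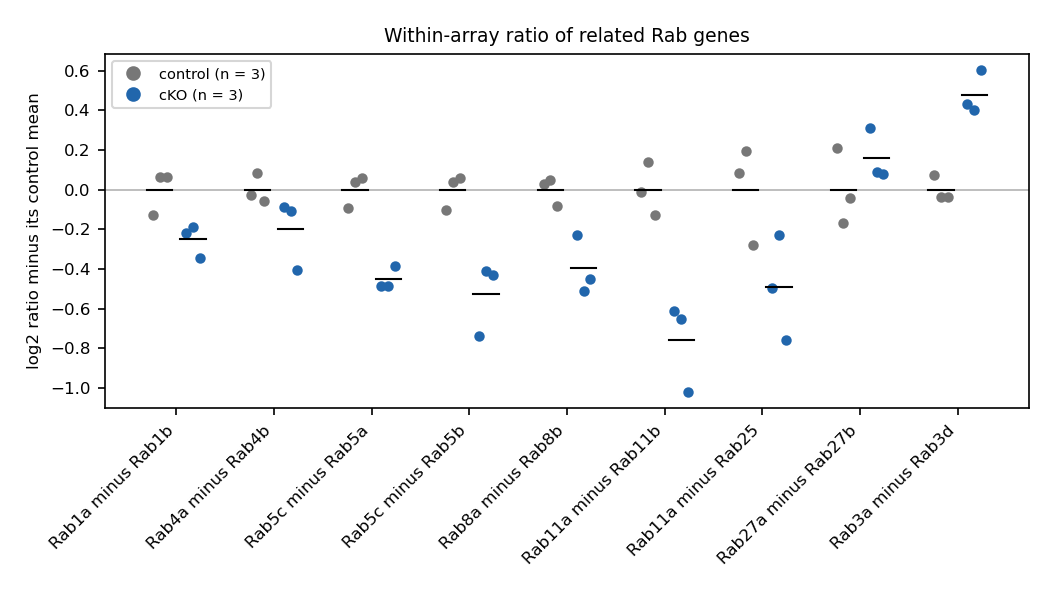
Log2 ratio of related Rab genes on each array, drawn relative to the mean ratio of the 3 control arrays (grey, control; blue, cKO; black bars, group means). The ratio of Rab11a to Rab11b changed by -0.76, and the points of Rab11a to Rab25 and of Rab27a to Rab27b overlap between the groups.

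Where a Rab had a further probe set its difference was close to that of the set used for Rab11b (-0.05 against -0.04) and Rab5b (-0.04 against -0.03), and larger for Rab2a, with no call in any of the 3. The levels of the 2 Rab11b sets were unlike, at 9.76 to 9.97 in the set used and 7.57 to 7.94 in the other. The ratio of Rab11a to Rab11b rests on the brighter set. Whether probes of one Rab also bind transcripts of a close relative or a processed copy is not stated in the material used here.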

How the data were processed

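The deposited table holds log2 expression values, 1 for each of 35512 probe sets on each of 6 arrays, made by the authors with dChip from Affymetrix Mouse Gene 1.0 arrays, per the series design text. The log2 scale was read from the range of the values, up to 14.07. The dChip version, background correction and normalization are not stated in the material used here, and the values were used as deposited. Gene names came from GEO's annotation of the platform: 21789 had 1 symbol, 1621 several and 12102 none listed, and symbols of 21698 were updated through the RefSeq gene table (GRCm38.p6). Precision is limited by there being 6 arrays. Samples were grouped by their titles.

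Each of 19938 genes, represented by its brightest probe set, was tested with limma 3.58.1 (lmFit and eBayes, two-sided, R 4.3.3), with no filter and no covariate, and p-values were adjusted by Benjamini-Hochberg. The fit was tested on simulated data. Named genes are all 59 Rab GTPases, Cdh1, up to 4 partners with the smallest p past the threshold in each list, and Myo5b, Rab11fip1, Stx3 and Stxbp2. The members and lists were chosen with earlier results of these data known. Of the listed partner symbols, 158 of 164 were measured. Marker lists are means of log2 values. A bounded fold sets the brighter group's mean against the mean, over the other group's arrays, of the higher of background and the value itself. Promoters of 48 Rab genes were found in the RefSeq table. Alternatives were 3 scalings, 2 filters on dim genes, 2 ways of treating several probe sets, array weights, a variance trend, a replicate block and leaving out each array. Same-numbered samples of the groups are not stated to be paired.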

Additional observations from a re-analysis of the deposited data

How the results depend on the processing

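The 18 Rab calls became 8 (2 higher, 6 lower) when all probe sets were tested, and 5 to 16 with 1 array left out (1 to 5 higher, 4 to 12 lower). Over all genes 7.76% passed when all probe sets were tested, and 6.15% to 13.6% with 1 array left out. Median centring left 6 lower Rab calls, where 12.9% of all genes passed. The 2825 genes called over the whole table became 1548 with all probe sets tested, 5834 with array weights and 1226 to 2713 with 1 array left out. The 33 partner calls became 21 with median centring, 15 with all probe sets tested, 63 with array weights and 11 to 28 with 1 array left out. Cdh1, at -0.95, passed without the dimmer 50% of genes (-0.95, adjusted p = 0.0444), with array weights (-0.89, 0.011) and with a variance trend (-0.95, 0.0477). It did not pass with quantile normalization (0.113), median centring (0.0507) or cyclic loess (0.0904). With 1 array left out its difference ran from -1.30 to -0.64, and it passed only without cKO 1. The median Rab difference of -0.11 was -0.019 with quantile normalization, -0.01 with median centring, -0.047 with cyclic loess, -0.15 without the dimmer 50% of genes, -0.067 with array weights and -0.16 to -0.07 with 1 array left out. The replicate block gave 14 Rab calls, without Rab8a, Rab4a, Rab1a and Rab12, and 20 partner calls, where 11.1% of all genes passed. Deviations of same-numbered arrays correlated at -0.08, 0.13 and 0.14, so the numbers were not taken as pairs, and for each number a higher correlation (0.137 to 0.154) was found with another number. The causes of these changes were not tested. No named gene that was called under any setting reversed its sign, and 6 Rab genes that were not called passed under at least 1 of the 16 alternatives. Signal over background limits Rab42, Rab7b, Rab38, Rab33a, Rab39b, Rab40b, Exph5 and Sytl3, among others.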
